A study of Mus musculus with 6 samples.

Results

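Uck2 and 8 further genes of pyrimidine supply were examined in hearts of mice that had lost Nelfb, which encodes a subunit of negative elongation factor (NELF). The genes encode the uridine-cytidine kinases (Uck1, Uck2 and Uckl1), uridine phosphorylase (Upp1), cytidine deaminase (Cda), the deoxynucleoside kinases (Tk2 and Dck), uridine monophosphate synthetase (Umps) and the UMP-CMP kinase (Cmpk1). They are 9 of the 16593 genes named on the array. They were chosen by function around Uck2, which was taken up because it was among the largest rises in this same comparison. The Uck2 difference is therefore given as a description with no test.

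The knockout mice carried the genotype Nelf-b f/f; CreER, and the control mice Nelf-b f/f without the recombinase, with 3 mice in each group. All were C57BL/6J females given tamoxifen at 8 weeks of age, fed regular chow and fasted for 5 hours, and the hearts were taken at 20 weeks. The controls lacked CreER, so an effect of the recombinase and an effect of the deleted gene cannot be told apart. The labels give neither the promoter that drives CreER nor the deleted exons. Heart RNA was hybridised to Illumina bead arrays, with 3 arrays for the 3 mice of each group.

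The group names need a caution that touches every sign below. Groups follow the sample records, to which the deposited value table is keyed. In the deposited table without normalization, the headers give each array the other group's name: each of its columns had the rank order of a value-table column of the other name, with a Spearman rho of 1 over all probes, where the next highest rho was at most 0.854. The split into 2 sets of 3 arrays is the same either way, and with the other headers every sign turns. With the records, Nelfb was lower in the hearts labelled knockout. Its brighter probe read 5.41, 5.46 and 5.46 in the knockout hearts, against 7.01, 7.08 and 7.07 in the control hearts on the log2 scale, a difference of -1.61 ± 0.13 SE (limma, adjusted p = 0.00024). The other Nelfb probe differed by -0.94 ± 0.14 SE (limma, adjusted p = 0.00406). The positions of these probes within the gene were not analysed here.

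Cells obtain pyrimidine nucleotides in 2 ways. De novo synthesis builds UMP from small precursors, with uridine monophosphate synthetase at the last steps, and salvage phosphorylates uridine, cytidine and deoxynucleosides that come from RNA and DNA turnover or from the blood. Uridine-cytidine kinase catalyses the rate-limiting step of uridine and cytidine salvage, and CTP synthase and the nucleoside mono- and diphosphate kinases lie downstream of both routes. UTP and CTP feed RNA synthesis, UDP-sugars for glycogen and protein glycosylation, and CDP-linked precursors of membrane lipids. Of the 2 main human kinases, UCK1 is found in many tissues, while UCK2 is the more active enzyme and is known chiefly from placenta and tumours.

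NELF acts just downstream of transcription start sites, where it keeps RNA polymerase II paused. The start-site windows of Uck2, of its paralog Uck1 and of Ctps, the CTP synthase gene whose signal was also higher in the knockout hearts, are therefore shown. Each window is from RefSeq on build GRCm38.p6 and runs from 250 bases before the start to 50 bases after it, on the minus strand, written in the direction of transcription. Uck2 lies at chr1:167285078-167285377, Uck1 at chr2:32260056-32260355 (the first of its 2 listed starts) and Ctps at chr4:120570227-120570526 (also the first of 2). Capitals mark matches on either strand to the GC box (GGGCGG), the CCAAT box (CCAAT), the TATA box (TATAAA) and the E-box (CACGTG).
Uck2: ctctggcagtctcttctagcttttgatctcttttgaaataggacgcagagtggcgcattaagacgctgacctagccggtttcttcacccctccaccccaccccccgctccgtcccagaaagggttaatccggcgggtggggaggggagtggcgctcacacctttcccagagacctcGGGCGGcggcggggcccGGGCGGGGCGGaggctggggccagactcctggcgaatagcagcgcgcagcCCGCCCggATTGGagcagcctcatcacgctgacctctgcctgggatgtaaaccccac
Uck1: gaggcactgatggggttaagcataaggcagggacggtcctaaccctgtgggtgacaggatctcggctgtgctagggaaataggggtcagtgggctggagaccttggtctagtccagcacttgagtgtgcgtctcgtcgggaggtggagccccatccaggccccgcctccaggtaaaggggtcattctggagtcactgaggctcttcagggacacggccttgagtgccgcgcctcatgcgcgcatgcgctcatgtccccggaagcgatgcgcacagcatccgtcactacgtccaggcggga
Ctps: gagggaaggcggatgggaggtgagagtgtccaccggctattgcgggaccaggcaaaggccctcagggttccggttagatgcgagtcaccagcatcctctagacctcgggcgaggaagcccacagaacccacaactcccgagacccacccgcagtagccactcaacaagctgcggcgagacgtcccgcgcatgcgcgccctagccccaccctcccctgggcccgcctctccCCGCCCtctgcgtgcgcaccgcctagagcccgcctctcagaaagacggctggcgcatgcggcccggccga

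The Uck2 window held 4 GC box matches, 2 of which share bases, and 1 CCAAT match just downstream of the start. The Ctps window held 1 GC box match and the Uck1 window none of the 4 motifs. Of 32851 RefSeq windows of the same length, 35.7% held a GC box, 37.4% a CCAAT box, 13.6% the TATA letters and 7.15% the E-box. The GC content was 64.7% for Uck2, 62.0% for Uck1 and 68.3% for Ctps, against a median of 52.7% over all windows and an upper quartile of 61.7%. Windows of all 9 genes were found, and the only TATA match among them was in Umps. These matches describe the letters in the windows and nothing about factors bound there.

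The 9 genes were covered unevenly by the array. They had 17 probes, with none for Cda in the annotation used, so Cda was not analysed here. A probe was tested when its detection p was below 0.05 on at least 3 of the 6 arrays, which 12 probes of 6 genes were. The single probe of Dck, the deoxycytidine kinase of the cytosol, was not detected on any array, nor was that of Uckl1, the third uridine-cytidine kinase gene, and both stayed between 4.12 and 4.60 on the log2 scale. The weakest detected signal of an array lay between 4.54 and 4.68 on that scale. Of the other 3 probes below the limit, 2 were for Uck1 and 1 for Umps. The Uck1 pair was detected on control array 2 alone, and the Umps probe on none.

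**Figure D1:**
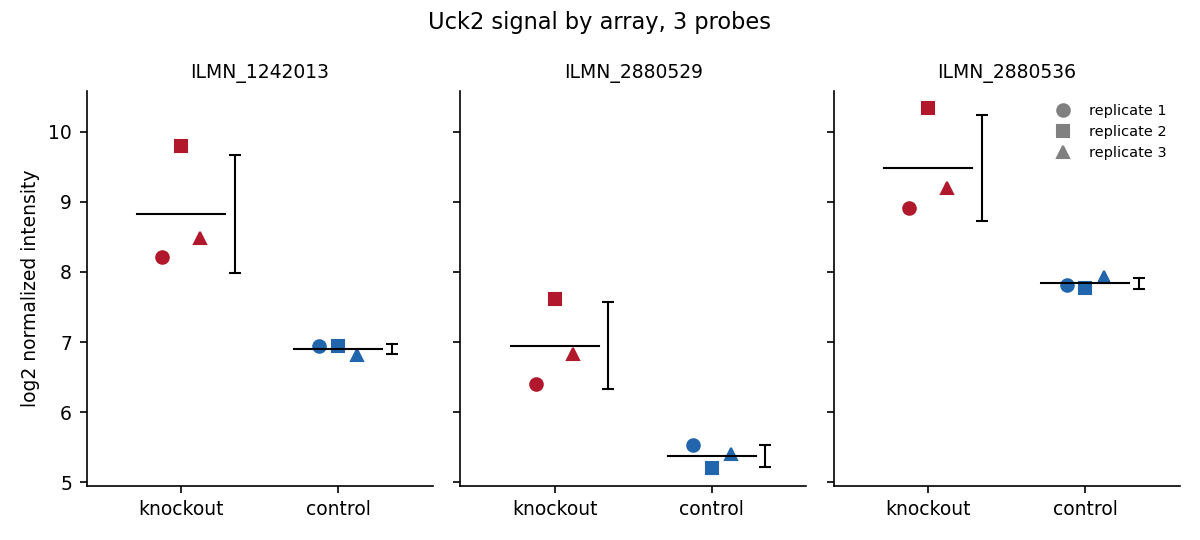
Uck2 signal on each array, for its 3 probes. The vertical axis is the log2 normalized intensity, each symbol is 1 heart, the line is the group mean and the bar beside it the SD over 3 arrays. The knockout hearts lie above all control hearts on each probe, and knockout replicate 2 is the highest.

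Uck2 was higher in every knockout heart than in any control heart on all 3 of its probes. The brightest probe, ILMN_2880536, read 8.91, 10.33 and 9.20 in the knockout hearts, against 7.82, 7.77 and 7.93 in the control hearts (log2). Probe ILMN_1242013 read 8.22, 9.79 and 8.49 in the knockout hearts, against 6.94, 6.94 and 6.82 in the control hearts. Probe ILMN_2880529, the dimmest, read 6.41, 7.62 and 6.83 in the knockout hearts, against 5.53, 5.21 and 5.40 in the control hearts. Each probe put knockout replicate 2 highest and knockout replicate 1 lowest within its group, and the control hearts lay close together.

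The mean log2 differences, knockout minus control, were 1.64 ± 0.29 SE, 1.93 ± 0.31 SE and 1.57 ± 0.25 SE in the same order, or 3.11-, 3.82- and 2.97-fold. Among the 10407 probes tested they ranked 5, 3 and 7 from the highest difference down. The 3 probes are readings of 1 transcript and not replicates of the condition. Centred on its own mean over the 6 arrays, the brightest probe differed from the others by a root mean square of 0.14 and 0.18 on the log2 scale, while its own SD over the arrays was 1.02.

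The size of the Uck2 difference varied between knockout hearts far more than the level varied between control hearts. On the brightest probe the SD was 0.75 in the knockout hearts and 0.08 in the control hearts (log2, n = 3 each), and on ILMN_1242013 it was 0.84 in the knockout hearts and 0.07 in the control hearts. Against the control mean of the brightest probe, knockout replicate 1 was 2.09-fold, replicate 2 5.62-fold and replicate 3 2.56-fold higher. Without knockout replicate 2 the difference was 1.21. limma pools the spread of both groups and then draws it toward the spread typical of all probes. The SEs above therefore hide this inequality and are smaller than the Uck2 readings alone would give.

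The authors' value table, with linear intensities, showed the same order with smaller ratios. The brightest probe had 734.2, 1653.2 and 868.8 units in the knockout hearts, against 404.2, 393.0 and 427.2 units in the control hearts. The ratio of the group means was 2.66 there, and 2.98 for ILMN_1242013 and 2.01 for ILMN_2880529. No background was subtracted from that table here. The dimmest probe moved most with the processing, with a log2 difference of 1.57 that was 0.72 from uncorrected intensities, 0.89 in the authors' value table and 1.07 at an offset of 50. The dimmer a probe, the more of its reading is background, so folds of different probes are not compared as amounts of RNA.

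Leaving aside Uck2, which was chosen on this contrast, no member passed the test. Of the 9 tested probes of the 5 other genes, 0 were called at an adjusted p below 0.05 (limma, Benjamini-Hochberg over all probes). Of all probes tested 3.80% were called, 1.92% higher and 1.87% lower in the knockout hearts. The knockout and control hearts did not overlap for 4 of these 9 probes, 2 of them readings of Upp1, where the share of all probes was 24.3%. The 4 were 1 Umps probe, higher in the knockout hearts, and 2 Upp1 probes and the Tk2 probe, lower in them. The median difference of the 6 member genes tested, Uck2 among them, was -0.10 on the log2 scale, with 1 probe per gene, and that of all 7579 genes tested was 0.01.

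**Figure D2:**
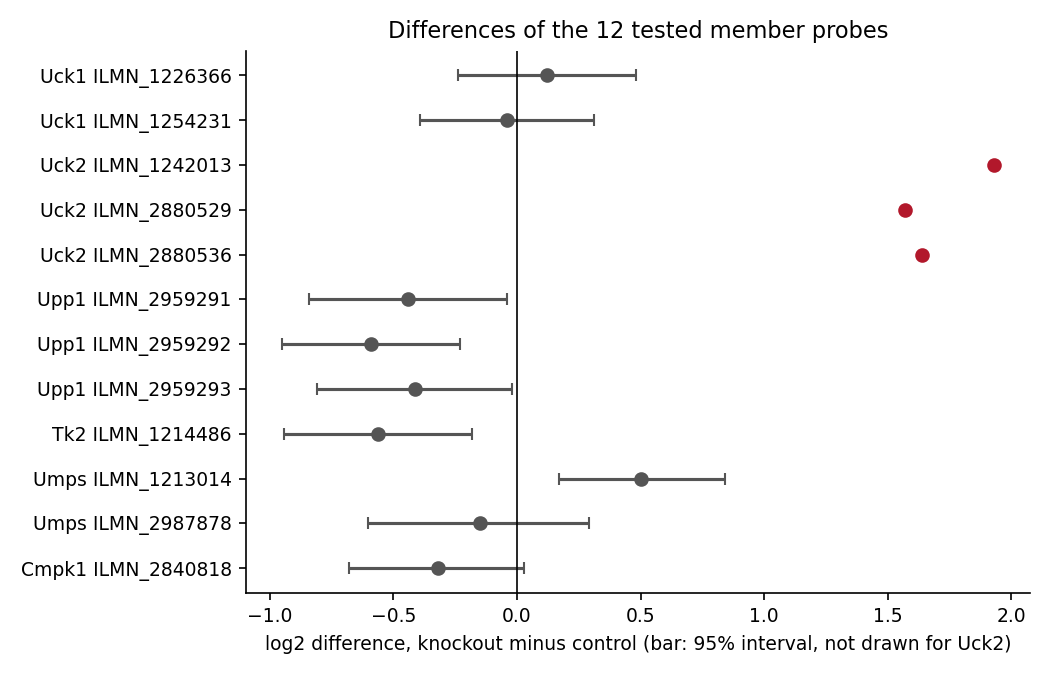
Log2 difference between knockout and control hearts (horizontal axis, knockout minus control) for the 12 tested member probes. Bars are 95% intervals from limma and are left out for Uck2, which was chosen on this contrast; the Uck2 probes sit between 1.57 and 1.93 and the other probes between -0.59 and 0.50.

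Uck1, the paralog of Uck2 that catalyses the same reaction, showed no detectable difference. Its brighter probe, ILMN_1226366, read 6.09, 5.75 and 5.73 in the knockout hearts, against 5.52, 5.74 and 5.94 in the control hearts, and the groups overlapped. The difference was 0.12, with a 95% interval from -0.24 to 0.48 (limma, adjusted p = 0.737). Its second tested probe, ILMN_1254231, was detected on 2 arrays of each group and differed by -0.04, with an interval from -0.39 to 0.31 (adjusted p = 0.912). Whether Uck1 and Uck2 differed in their response was not tested, because Uck2 was picked for its difference.

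Upp1, which splits uridine into uracil and ribose phosphate and so draws on the same substrate as the kinases, had a lower mean in the knockout hearts on each of its 3 probes but passed the test on none. Probe ILMN_2959292 read 4.91, 5.46 and 5.17 in the knockout hearts, against 5.71, 5.92 and 5.68 in the control hearts. The groups did not overlap, and the difference was -0.59 ± 0.17 SE (limma, adjusted p = 0.0745). The brightest probe, ILMN_2959291, read 6.44, 6.89 and 7.15 in the knockout hearts, against 7.12, 7.25 and 7.42 in the control hearts, so that knockout replicate 3 lay just above control replicate 1. Its difference was -0.44 ± 0.19 SE (adjusted p = 0.217). Probe ILMN_2959293 differed by -0.41 ± 0.18 SE (adjusted p = 0.233), with groups separated by 0.01. Knockout replicate 1 was the lowest of all hearts on the 3 probes.

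Of the members that phosphorylate deoxynucleosides, Tk2 was tested and Dck was not. Tk2 encodes the mitochondrial thymidine kinase, which supplies deoxynucleotides for mitochondrial DNA in cells that do not divide. It read 6.15, 5.90 and 5.51 in the knockout hearts, against 6.29, 6.52 and 6.42 in the control hearts. Every knockout heart was below every control heart. The difference was -0.56, with an interval from -0.94 to -0.18, and did not pass the test over all probes (limma, adjusted p = 0.103). Dguok, the mitochondrial deoxyguanosine kinase of the pathway lists, read 7.67, 7.48 and 7.74 in the knockout hearts, against 7.98, 7.55 and 7.66 in the control hearts, with overlap and a difference of -0.10 (adjusted p = 0.783). Tk1, the cytosolic thymidine kinase, was not tested. Its probe ILMN_2605890 was detected on 1 array of each group, and its probes ILMN_2611857 and ILMN_2893926 on none.

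Umps, the last enzyme of UMP synthesis, gave 2 readings that did not match. Probe ILMN_1213014 read 5.23, 4.99 and 5.23 in the knockout hearts, against 4.74, 4.78 and 4.43 in the control hearts. Its difference was 0.50 ± 0.15 SE without overlap of the groups (limma, adjusted p = 0.0972), and control replicate 3 was not detected. Probe ILMN_2987878, detected on 1 knockout and 2 control arrays, differed by -0.15 ± 0.20 SE (adjusted p = 0.735). Both probes lay close to the weakest signals that count as detected, so the direction of Umps was not settled.

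Cmpk1, which phosphorylates UMP and CMP made by either route, overlapped between the groups. It read 6.33, 6.01 and 6.55 in the knockout hearts, against 6.70, 6.52 and 6.64 in the control hearts. The difference was -0.32, with an interval from -0.68 to 0.03 (limma, adjusted p = 0.293).

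**Figure D3:**
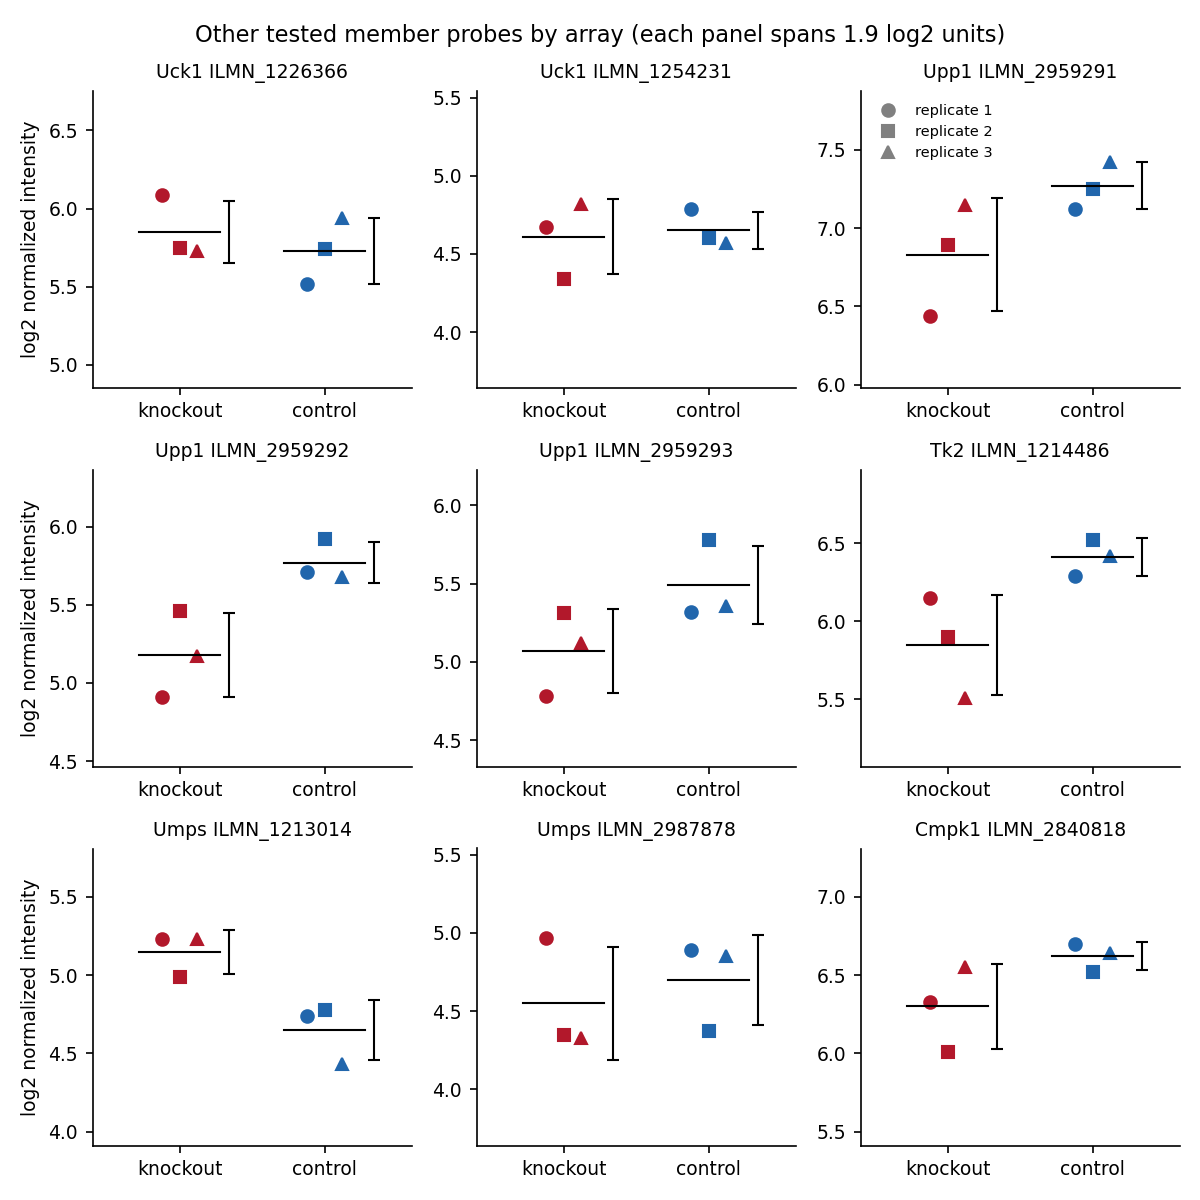
Signal on each array for the 9 tested probes of Uck1, Upp1, Tk2, Umps and Cmpk1, drawn as for Uck2, on log2 axes of equal span. The groups are apart for Tk2, for 2 Upp1 probes (lower in the knockout hearts) and for 1 Umps probe (higher). The gaps for Tk2 and for these 2 Upp1 probes are smaller than the SD of the knockout hearts, and that of ILMN_2959293 is the smallest.

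Other genes of pyrimidine metabolism were read from lists chosen by function, of 57 genes in all. A tested probe was found for 38 of them, each gene being represented by its brightest tested probe. Ctps and Nme3 were called higher, none was called lower, and 36 did not pass the test. Of all 7579 genes tested, 3.87% were called (2.02% higher and 1.85% lower). The means of 18 genes were higher and those of 20 lower in the knockout hearts, and the median difference was -0.03.

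Ctps, which encodes the CTP synthase that turns UTP into CTP, rose. Its brightest probe, ILMN_2620435, read 10.11, 10.17 and 9.90 in the knockout hearts, against 9.42, 9.39 and 9.30 in the control hearts. The difference was 0.69 ± 0.14 SE, or 1.61-fold (limma, adjusted p = 0.0230). A second probe, ILMN_2932964, read 9.19, 9.13 and 9.10 in the knockout hearts, against 8.40, 8.33 and 8.38 in the control hearts, a difference of 0.77 ± 0.13 SE (adjusted p = 0.00924). The third and dimmest differed by 0.39 ± 0.16 SE (adjusted p = 0.221), with no overlap of the groups on any of the 3. Unlike Uck2, the 2 bright Ctps probes did not put knockout replicate 2 far above the others. The dimmest Ctps probe did put it highest, with 5.61, 6.03 and 5.58 in the knockout hearts, against 5.47, 5.18 and 5.41 in the control hearts. The call of the brightest probe was lost with median scaling (adjusted p = 0.644) and without knockout replicate 1 (0.0627), knockout replicate 2 (0.0972), control replicate 2 (0.0739) or control replicate 3 (0.0952). The second probe lost its call with median scaling (0.450) and kept it without any single array.

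Nme3, a nucleoside diphosphate kinase gene of the family that makes UTP and CTP from their diphosphates, also rose. It read 8.32, 8.36 and 8.41 in the knockout hearts, against 7.76, 7.43 and 7.80 in the control hearts, a difference of 0.70 ± 0.15 SE, or 1.62-fold (limma, adjusted p = 0.0268). Its call was lost with median scaling, with no detection filter and without any 1 of the arrays other than control replicate 1, with adjusted p-values from 0.0550 to 0.690. Its mitochondrial relative Nme4 differed by -0.63 ± 0.18 SE and was not called (limma, adjusted p = 0.0823). The second tested Nme4 probe differed by -0.68 ± 0.21 SE (adjusted p = 0.097), and the groups did not overlap on either. The cytosolic family members Nme1 and, on its brightest probe, Nme2 differed by 0.16 and 0.08 and were not called.

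**Figure D4:**
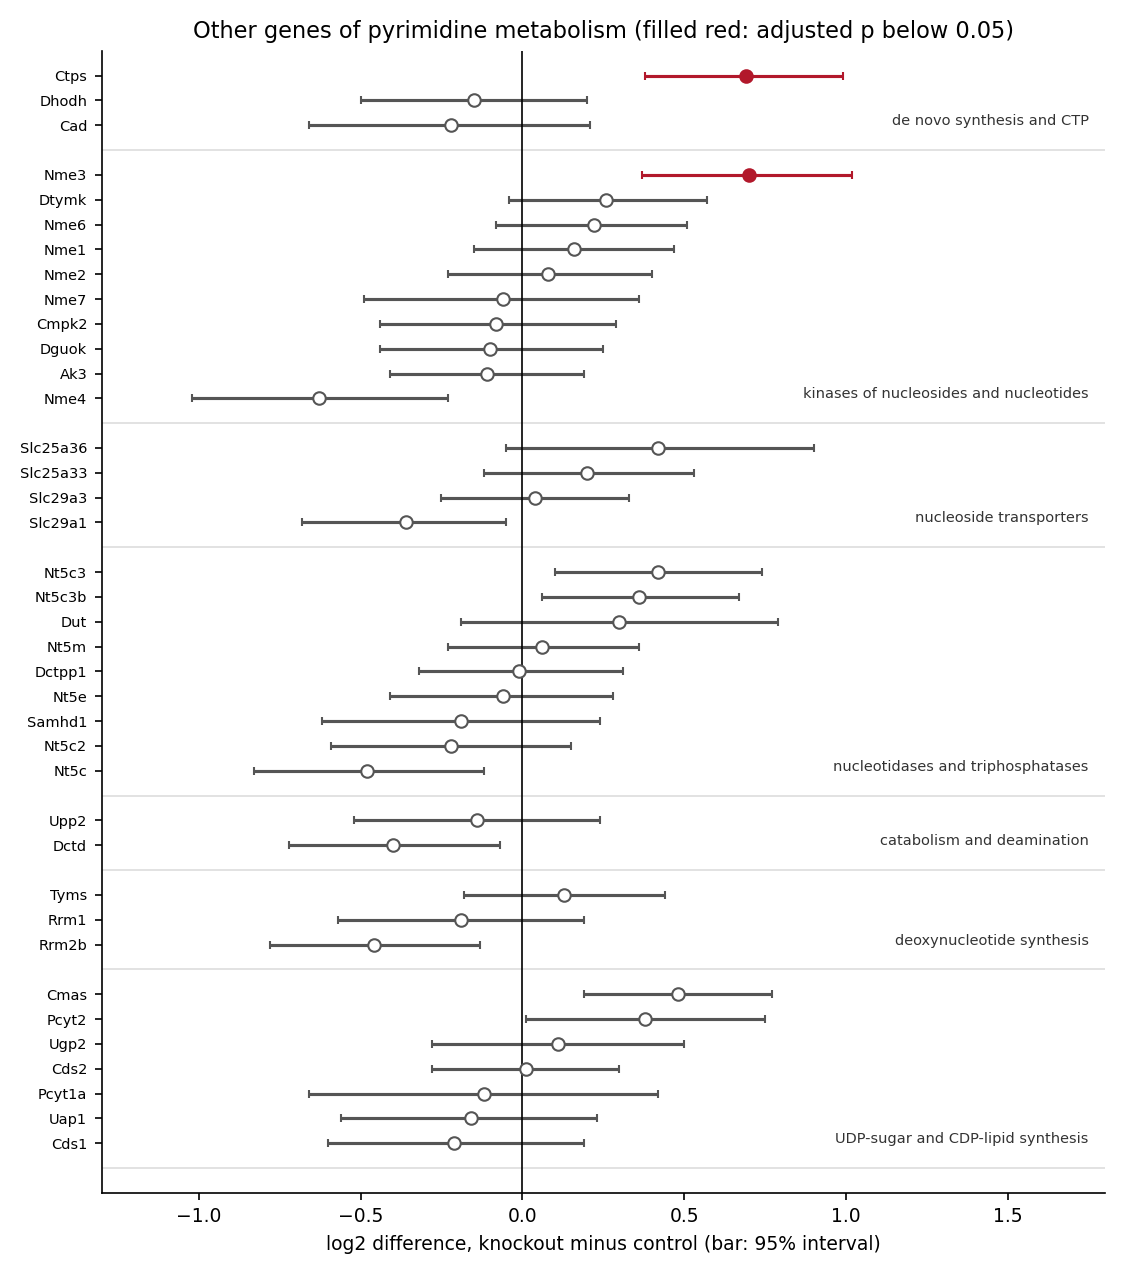
Log2 difference between knockout and control hearts (knockout minus control) for the 38 tested genes of the other pyrimidine lists, grouped by function, with 95% intervals from limma. Filled red points are Ctps and Nme3, at 0.69 and 0.70; the other genes lie between -0.63 and 0.48.

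Beside Ctps in the list of de novo synthesis and CTP, Cad, which carries out the first steps, differed by -0.22 (limma, adjusted p = 0.589) and Dhodh, the mitochondrial enzyme between them and Umps, by -0.15 (adjusted p = 0.662). The lists of transporters, nucleotidases, catabolism, deoxynucleotide synthesis and users of UTP or CTP held no called gene. Of 4 tested genes of the transporter list, which also holds mitochondrial carriers, the equilibrative nucleoside transporter gene Slc29a1 differed by -0.36 (limma, adjusted p = 0.193). The mitochondrial carrier gene Slc25a36 differed by 0.42 (adjusted p = 0.310). Of 9 nucleotidases and triphosphatases, Nt5c differed by -0.48 (adjusted p = 0.130) and Nt5c3, which removes the phosphate from UMP and CMP, by 0.42 (adjusted p = 0.135). In catabolism and deamination, the dCMP deaminase gene Dctd was detected on 0 knockout and 3 control arrays, so only a bound is given. Its control mean was 1.11-fold above the lowest detected signals of the knockout arrays, taken as the floor. Measured means were 4.41 in the knockout and 4.80 in the control hearts, and Dctd was not called (limma, adjusted p = 0.168). Control replicate 3, at 4.59, lay below that floor, which ran from 4.63 to 4.68. A lower level in the knockout hearts was therefore not established. Dctd passed the detection filter through the control hearts alone, as did the dimmer Nme7 probe ILMN_2635105 of the kinase list. The brightest Nme7 probe was detected on all 6 arrays and differed by -0.06 (limma, adjusted p = 0.89). Upp2, the other tested gene of catabolism and deamination, differed by -0.14 (adjusted p = 0.714). For deoxynucleotides, the ribonucleotide reductase subunit genes Rrm2b, which serves cells outside S phase, and Rrm1 differed by -0.46 (adjusted p = 0.119) and -0.19. Of 7 genes that use UTP or CTP, Cmas, which makes CMP-sialic acid, differed by 0.48 (adjusted p = 0.0733) and Pcyt2, of CDP-ethanolamine synthesis, by 0.38 (adjusted p = 0.246).

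The genes whose pattern over the 6 hearts was most like that of Uck2 were Hbegf, H2ac21, H3c14, Adssl1 and Ccn2. Likeness was the root mean square difference between log2 profiles, each centred on its own mean, over 7578 genes. A large difference between the groups and a high knockout replicate 2 are both part of the Uck2 pattern, so both are set by this choice and no test is given. The closest was Hbegf, which encodes a growth factor that binds the EGF receptor, at 0.24. It read 6.87, 8.03 and 7.16 in the knockout hearts, against 6.12, 6.17 and 6.10 in the control hearts. The histone genes H2ac21 and H3c14 followed at 0.30 and 0.31, and transcripts of their near-identical relatives may bind these probes. Adssl1, the muscle adenylosuccinate synthase of the purine nucleotide cycle, was at 0.33. Ccn2, which encodes connective tissue growth factor, was at 0.34. It read 10.71, 11.98 and 11.05 in the knockout hearts, against 10.18, 10.40 and 10.04 in the control hearts.

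**Figure D5:**
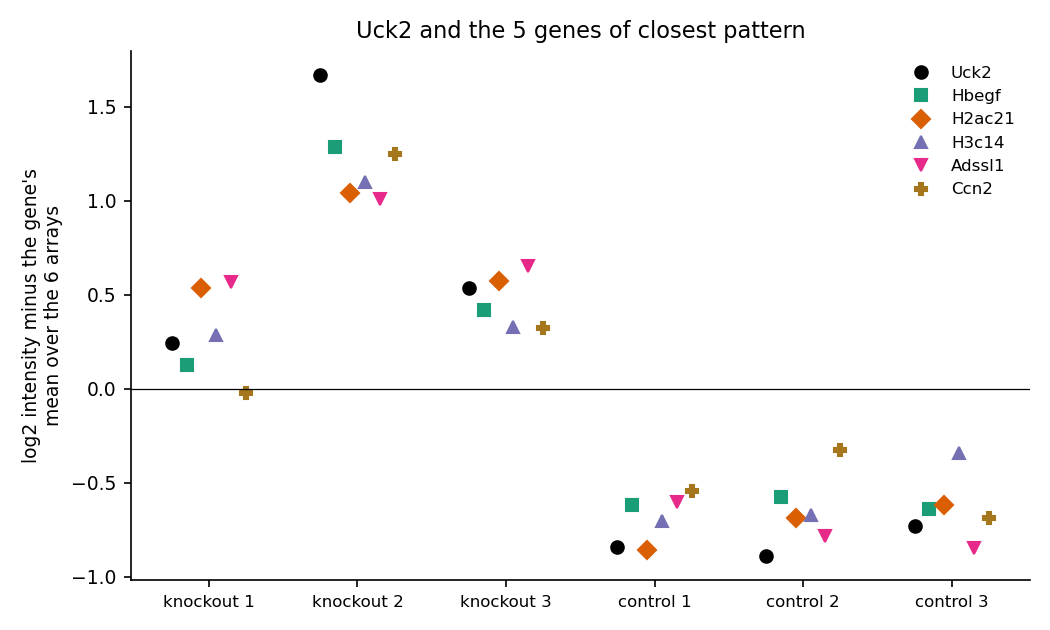
Log2 intensity on each array, minus the gene's mean over the 6 arrays, for Uck2 (black) and the 5 genes of closest pattern. The genes were chosen for likeness to Uck2, so the knockout hearts lie above the control hearts and knockout replicate 2 is the highest.

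Facts of the arrays and tissue stand beside these values. The mean intensity before normalization ran from 208.0 to 259.9 on the knockout arrays and from 169.8 to 310.3 on the control arrays, and 38.8% to 43.8% of probes were detected. Control replicate 1 stood apart on the second principal component, at 22.4 against -9.9 to 1.8 on the other arrays, and Uck2, Upp1 and Tk2 kept their directions without it. Markers of cardiomyocytes were bright, with 6 of 7 measured genes tested and none called, and their summed intensity ran from 84720 to 93925 in the knockout hearts and from 87056 to 92303 in the control hearts. Summed intensities of endothelial, fibroblast, leukocyte, neutrophil, erythroid, adipocyte and dividing-cell markers overlapped between the groups with none called. The erythroid sums varied widely, from 6751 to 17697 in the knockout hearts and from 2024 to 11154 in the control hearts. The adipocyte sum rested on 1 tested gene, and the neutrophil and dividing-cell sums on 2 each. Ptprc, Csf3r, Ngp, Plin1, Fabp4, Top2a, Cdk1 and Pcna were among the markers below the detection limit. The 4 tested genes of the skeletal muscle list were Acta1, Myl1, Tnni2 and Ckm. They summed to between 19576 and 25123 in the knockout hearts and between 8010 and 10095 in the control hearts. Acta1 was called higher and Myl1 lower, and Tnnt3 and Mylpf were below the limit. The called genes went opposite ways, so this sum is not read as an amount of skeletal muscle. Smooth muscle markers summed to between 2584 and 3241 in the knockout hearts and between 3835 and 4727 in the control hearts, with Acta2 called lower of 5 tested and Cnn1 below the limit. The part of these differences in the Uck2, Upp1 and Ctps values was not tested. In whole heart RNA, fewer cells of a type and less RNA per cell cannot be told apart.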

How the data were processed

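RNA of 6 mouse hearts, 3 knockout and 3 control, was measured on 1 Illumina bead array each. The authors deposited intensity values that were not normalized, with a detection p-value per probe and array per the file headers, and a value table of linear intensity values whose 6 columns share 1 distribution. Its scaling is not stated in the sources; GenomeStudio is named, without a version, in the submitters' processing notes. Columns of the table without normalization were tied to sample records by their rank match, a choice made after both tables were seen. Probe symbols came from the platform annotation (23977 of 25696 probes had 1, 0 had several), and 0 symbols were updated through RefSeq.

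The intensities went through neqc (limma 3.58.1 in R 4.3.3, offset 16), which corrects background and sets equal quantiles, with negative controls inferred from the detection p-values. The 10407 probes detected (p below 0.05) on 3 or more arrays were tested on their log2 values by lmFit and eBayes, 2-sided. A call needs a Benjamini-Hochberg adjusted p below 0.05 over all of them, which 200 higher and 195 lower probes reached. Errors are limma's moderated SE or the SD over 3 arrays. The fit was also run on simulated data with independent noise of equal spread in both groups. Uck2 readings were spread unequally, so that run says nothing about the Uck2 errors. With 3 arrays against 3, an exact permutation test cannot give a p below 0.1, and the number of arrays limits the precision.

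The members and the lists were chosen with earlier results of these data known. The rule for named genes took Nelfb, all members, called genes of the pathway lists or else the 2 with the smallest p per list, and the 5 genes closest to Uck2. Dhodh, Dguok, Tk1, Nme1, Nme2, Nme7, the third Ctps probe, the second Nme4 probe and the markers named were added after their values were seen. Alternatives covered background, table, scaling, offset, detection filter, variance prior, array weights, 1 probe per gene, the replicate number as a block and each array left out. Figures used Python 3.11.15 and matplotlib 3.10.9.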

Additional observations from a re-analysis of the deposited data

How the results depend on the processing

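On its brightest probe the Uck2 log2 difference was 1.64, stayed between 1.21 and 1.92 when each array was left out in turn (1.21 without knockout replicate 2), and was 1.29 in the authors' value table and 1.34 from uncorrected intensities. The dimmest Uck2 probe, ILMN_2880529, had 1.57, and 0.72 from uncorrected intensities, 0.89 in the value table and 1.07 at offset 50. Of all probes, 395 were called. Fewer were called with median scaling (69) and when the detection filter was dropped (163, of 25696 probes tested). More were called in the authors' value table (762), from uncorrected intensities (675), at offset 50 (691), with a trended and robust variance prior (773) and with array weights (735). It ran from 131 to 491 with each array left out, with 131 without control replicate 3, 159 without control replicate 2, 154 without knockout replicate 2 and 221 without knockout replicate 3. The member calls were all Uck2, which was chosen on this contrast, so these counts support nothing: 3 probes and 1 gene, against 0 and 0 with no detection filter and 1 and 0 with the trended and robust prior. With array weights Upp1 probe ILMN_2959292 was also called (limma, adjusted p = 0.0370). The 2 called pathway genes became 4 in the value table, 4 from uncorrected intensities and 4 at offset 50 (Cmas and Nt5c3 added), 0 with median scaling, 5 with the trended and robust prior and 4 with array weights (Cmas and Nme4 added). Their number ran from 0 to 2 with each array left out: 0 without knockout replicate 1 or 2 or control replicate 2 or 3, and 1, Ctps, without knockout replicate 3. The cause of these changes was not tested. Uck1 probe ILMN_1254231, at -0.04, ran from -0.15 to 0.09 with each array left out and turned sign without knockout replicate 2 (0.09) and control replicate 1 (0.03). Hearts of the same replicate number did not deviate together (correlations of deviations -0.06, 0 and -0.06), which does not settle whether they were paired. The fit with the replicate number as a block called 299 probes, 3 member probes and 2 pathway genes. Keeping 1 probe per gene gives no count of probes. Probes near the detection limit, such as those of Umps and the second Uck1 probe, have their differences limited by background.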
